A study of Mus musculus with 12 samples.

Results

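Neuropeptide precursors and granins were followed through 12 libraries of an experiment that measured translation in the mouse brain, as 10 genes of the 20504 in the table of counts on coding sequence (CDS). The genes were taken by name from a list, with no threshold on their values, and all 10 were found in the CDS table and in the table of exon counts. They fall into 5 precursors of regionally restricted peptides (Pmch, Hcrt, Cartpt, Pdyn and Trh) and 5 granins or granin-like proteins (Scg2, Scg3, Chga, Chgb and Vgf).

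Neuropeptides are cut out of larger precursor proteins by proprotein convertases while the precursor travels through the secretory pathway into dense core vesicles, from which the peptides are released. Pmch encodes the precursor of melanin-concentrating hormone and Hcrt that of the hypocretins, also called orexins, which are made by separate sets of neurons in the lateral hypothalamus. Granins are acidic proteins that aggregate in the same vesicles and are found in neurons and endocrine cells of many regions, so that a granin transcript comes from far more of the brain than a hypocretin transcript.

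The mice carried a Cre recombinase driven by the Camk2a promoter, which is active in principal excitatory neurons of the forebrain, together with the RiboTag allele of Rpl22, so that ribosomes of those neurons bear an HA epitope. All groups shared this genotype and were 3 months of age, and the methods name the right frontal lobe as the tissue of the drug experiment (mice A to D); for mice E and F the labels say brain. Mice A and B, called Untreated in the labels and given vehicle according to the methods, and mice C and D, given AZD-8055 at 100 mg/kg by oral gavage and sacrificed 1 h later, each gave a ribosome footprint library and a poly(A)-selected RNA library. Mice E and F, labelled Untreated, each gave an RNA library of homogenate (input) and one of polysomes immunoprecipitated (IP) with the HA tag. Every group therefore held 2 libraries, and where treated and untreated mice are compared the p-values measure the spread between 2 animals per group. Where IP is set against input, or footprints against RNA, the same mice gave both kinds of library. The main tests did not pair those libraries by mouse, and fits that did are given among the alternatives.

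Total CDS counts were 9395385 to 10649939 in the RNA libraries of mice A to D, 3503873 to 9259938 in the footprint libraries, 12580397 (E) and 15585831 (F) for input, and 9309496 (E) and 9975629 (F) for IP. Of 10 markers of excitatory neurons, 4 were called higher in the IP and 0 lower, while 8 of 9 markers of inhibitory neurons and 22 of 24 glial and endothelial markers were called lower (the call is defined with the IP results). The 6 choroid plexus markers summed to 1072 CPM (counts scaled to a library total of 1000000) in the RNA of mouse B and to between 18.0 and 83.2 CPM in the homogenate RNA of the other 5 mice.

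The start regions are shown for the 2 members with the widest spread between mice in RNA, Pmch and Hcrt. They are also shown for Scg2, Chgb and Cartpt, the 3 members with an exact match to TGACGTCA in the windows searched. Each sequence is the sense strand of the 120 bases that end just before an annotated transcription start, from RefSeq on GRCm38.p6, the assembly that mm10 names in the submitters' processing notes. The windows are chr10:88090952-88091071 on the plus strand for Pmch, chr11:100762932-100763051 on the minus strand for Hcrt, chr1:79440027-79440146 on the minus strand for Scg2, chr2:132781522-132781641 on the plus strand for Chgb and chr13:99900684-99900803 on the minus strand for Cartpt. Capitals mark TATAAA in Pmch and Hcrt and TGACGTCA in Scg2, Chgb and Cartpt.
Pmch: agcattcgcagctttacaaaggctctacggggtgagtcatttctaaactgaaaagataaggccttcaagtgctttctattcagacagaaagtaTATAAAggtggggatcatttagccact
Hcrt: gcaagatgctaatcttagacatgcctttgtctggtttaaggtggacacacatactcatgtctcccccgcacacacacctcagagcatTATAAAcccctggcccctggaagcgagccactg
Scg2: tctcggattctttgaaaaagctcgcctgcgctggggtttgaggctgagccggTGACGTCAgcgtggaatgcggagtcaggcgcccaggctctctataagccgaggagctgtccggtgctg
Chgb: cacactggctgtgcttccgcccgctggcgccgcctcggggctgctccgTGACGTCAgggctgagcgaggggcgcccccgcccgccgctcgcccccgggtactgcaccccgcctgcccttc
Cartpt: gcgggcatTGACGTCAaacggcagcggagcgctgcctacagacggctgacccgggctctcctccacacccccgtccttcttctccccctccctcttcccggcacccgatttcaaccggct

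TATAAA, TGACGTCA and CACGTG were searched on both strands in windows of 250 bases before to 50 bases after the start, which RefSeq gave for 9 of the 10 members (Vgf had none, and Pdyn had 2 starts). TGACGTCA, the full cyclic AMP response element and its own reverse complement, was in 3 of the 10 member windows and in 1.79% of 32851 windows of all genes. It began 68 bases before the start in Scg2, 72 in Chgb and 112 in Cartpt. Only exact matches were counted, so variants of the element in other members were not searched. TATAAA was in the windows of Pmch, Hcrt and Chga and in 13.6% of all windows, beginning 27 bases before the start in Pmch and 33 in Hcrt, and just after it in Chga. CACGTG, the E-box core, was in 0 member windows and in 7.15% of all windows. These matches describe letters in the sequence and no binding was measured.

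Of the 5 regional peptides, 4 differed widely over the 6 mice of the drug and RiboTag experiments together, and the granins differed little. Over the homogenate RNA of the 6 mice, the SD of log2 CPM was 2.70 for Pmch, 3.17 for Hcrt, 0.94 for Trh and 0.80 for Cartpt, against 0.060 for Scg3, 0.12 for Chga and Chgb, 0.16 for Vgf and 0.17 for Scg2. Pdyn was the exception among the peptides, with an SD of 0.16. These SDs mix experiment and mouse. Within mice A to D alone they were 2.62 for Pmch, 3.48 for Hcrt, 0.94 for Trh and 0.18 for Cartpt. Over the 6 mice, the median was 0.165 for the 12419 genes that averaged 37 or more counts a library. Hcrt lies below that minimum over the 6 mice, while Pmch had the 10th largest SD of all those genes and Trh the 37th. The largest SDs were those of Eif2s3y (4.64), Ddx3y (4.45), Uty (4.08) and Kdm5d (3.89), and no comparison here took the sex of the mice into account.

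**Figure D1:**
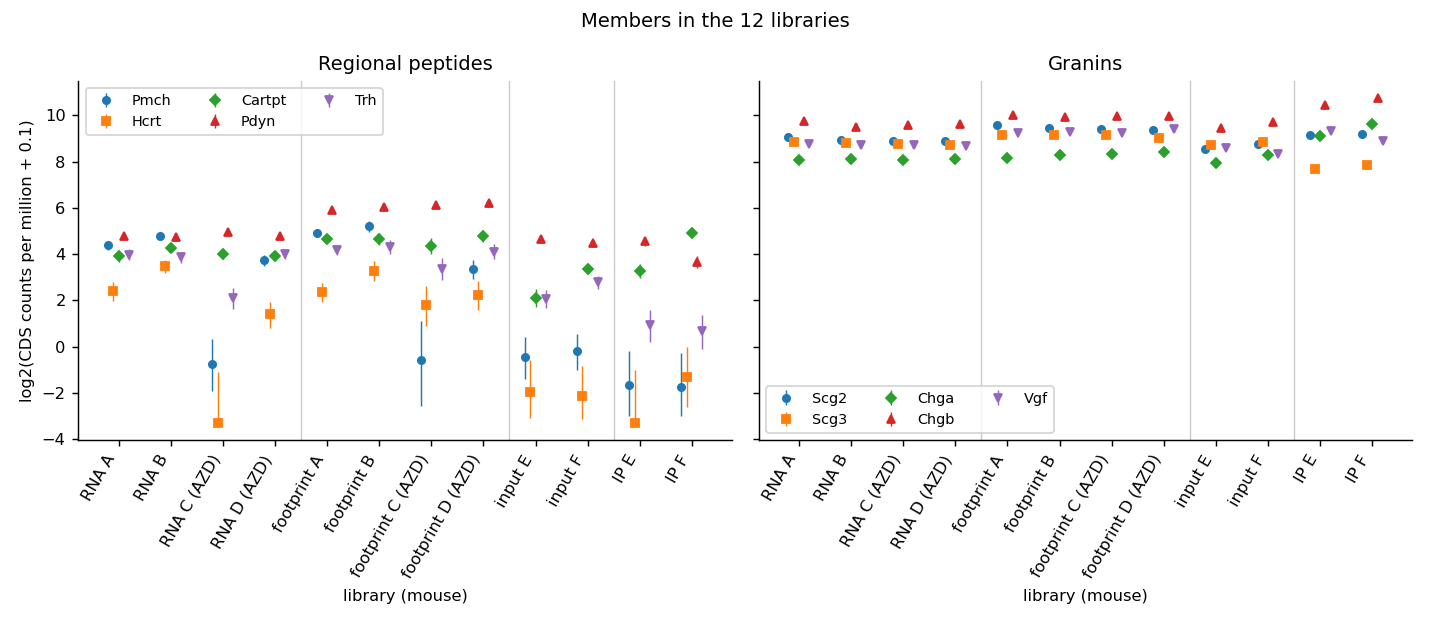
Log2 of CDS CPM plus 0.1 (y axis) of the 5 regional peptides (left) and the 5 granins (right) in each of the 12 libraries (x axis, with the mouse letter); bars are exact 95% Poisson intervals of the count. Pmch and Hcrt are low in the RNA of mice C, E and F, where Pmch lies between 0.496 and 0.770 CPM, while each granin keeps nearly one level across the 6 homogenate RNA libraries.

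Pmch was counted 196 times in the RNA of mouse A, 271 in B, 5 in C and 142 in D, and 8 and 12 times in the inputs of E and F. These are 20.9, 27.4, 0.496, 13.3, 0.636 and 0.770 CPM. The order of the levels was thus B, A and D above F, E and C, a 55.2-fold range, and the intervals of F (0.398 to 1.34 CPM), E (0.275 to 1.25) and C (0.161 to 1.16) overlap. Footprints gave the same split, with 278 counts (30.0 CPM) in A, 167 (36.7) in B, 2 (0.571) in C and 48 (10.1) in D.

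Mice C and D received the same dose, yet Pmch was 26.9-fold higher in D than in C in RNA (95% counting interval 11.2 to 84.0) and 17.7-fold higher in footprints (4.63 to 150). These intervals cover counting error only. Mice A and B differed less, with a ratio of A to B of 0.761 (0.630 to 0.918) in RNA and 0.818 (0.673 to 0.997) in footprints.

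Hcrt was counted 49 times in the RNA of mouse A, 109 in B, 0 in C, 27 in D, and 2 in each input. In CPM these are 5.22, 11.0, 0, 2.54, 0.159 and 0.128, so that B was at least 37-fold above C with C set to a floor of 3 counts, the one-sided limit of a count of 0. Footprints gave a narrower range, with 47 counts in A, 44 in B, 12 in C and 22 in D, or 5.08, 9.67, 3.42 and 4.62 CPM. Mouse C thus had 12 Hcrt footprints (95% Poisson interval 6.20 to 21) and no Hcrt read in an RNA library of 10074126 counts, which allows up to 3 counts as a one-sided limit (3.69 as the upper end of the two-sided Poisson interval). Its footprint library, with 3503873 counts, had a count for 17417 genes, against 15869 in its RNA library, so other genes too had footprints without an RNA count. How many of those genes reached 12 footprints was not counted. The source of such footprints was not tested.

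Trh, the precursor of thyrotropin-releasing hormone, was low in the same mice to a lesser extent. Its RNA counts were 148 in A, 145 in B, 42 in C, 172 in D, 52 in E and 106 in F, which are 15.8, 14.7, 4.17, 16.2, 4.13 and 6.80 CPM. Mice A, B and D lay within a 1.10-fold range of each other, and D was 3.87-fold above C (2.75 to 5.57). Trh footprints were 17.9 CPM in A, 19.8 in B, 10.3 in C and 17.2 in D.

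Cartpt, the precursor of the cocaine- and amphetamine-regulated transcript peptides, did not follow mouse C. Its RNA level was 14.9 CPM in A, 19.4 in B, 16.1 in C and 15 in D, and it was lower in the inputs, at 4.21 CPM in E and 10.1 in F. Its footprints were 25.2, 25.5, 20.3 and 27.3 CPM in A to D. Without mice E and F its SD in RNA was 0.18, against a median of 0.107 over all 12182 genes with enough counts in mice A to D.

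Pdyn, the precursor of the dynorphins, which act on the kappa opioid receptor, was nearly level. It gave 27.5 CPM in A, 27.0 in B, 31.0 in C, 27.6 in D, 25.0 in E and 22.1 in F, a 1.40-fold range. Its footprints ran from 60.8 CPM in A through 66.4 in B and 70.5 in C to 74.8 in D. Over the 6 mice, the median SD of the 5 peptides was 0.94 and that of the 5 granins 0.12.

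Among the granins, Scg3, which binds Chga and brings it to vesicle membranes, had the narrowest range, from 416 to 460 CPM over the 6 homogenate RNA libraries (1.10-fold). Chga ranged from 243 to 315 CPM, Chgb from 705 to 876, Vgf from 322 to 431 and Scg2 from 379 to 538 CPM, the widest of the 5 at 1.42-fold. Within mice A to D alone, the SD of log2 CPM was 0.032 for Chga and 0.034 for Vgf, and 3.96% and 4.60% of genes had a smaller one. Scg2 and Chgb spread more in these 4 mice, at 0.082 and 0.12. Footprints of the granins ran from 283 to 348 CPM for Chga, 983 to 1031 for Chgb, 597 to 691 for Vgf, 666 to 764 for Scg2 and 528 to 576 for Scg3 over mice A to D. The SD of log2 CPM of Chga was 0.12 in these footprints, against 0.032 in the RNA of the same mice, and that of Vgf 0.093 against 0.034. Chgb had the smallest SD of footprints among the members, at 0.029, and Pmch had the largest of all 10695 genes, at 2.62. Levels of different genes were not set against each other, because no lengths of the coding sequences were used.

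**Figure D2:**
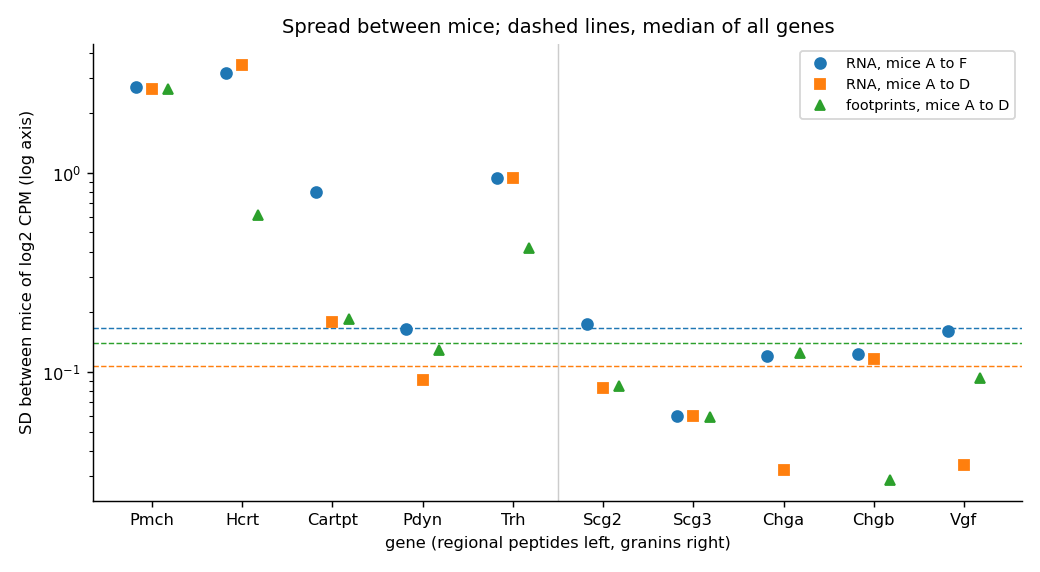
SD between mice of log2 CPM (y axis, log scale) of each member in homogenate RNA of 6 mice (circles), homogenate RNA of mice A to D (squares) and footprints of mice A to D (triangles), with dashed lines at the median SD of all genes in each set. Pmch, Hcrt and Trh lie above the lines in all 3 sets, and the 5 granins lie near or below them.

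Oxt and Avp, made by neurons of the paraventricular and supraoptic nuclei, were also low in mice C and E, and not every hypothalamic peptide was. A list of 16 other hypothalamic peptides, made up mostly of Oxt and Avp counts in mice A, B and D, summed to 104 CPM in the RNA of mouse A, 136 in B, 17.3 in C, 86.0 in D, 9.22 in E and 25.5 in F, and 1 to 4 of the 16 were at 0. Oxt, the oxytocin precursor, was counted 343, 415, 18 and 312 times in the RNA of A to D and 2 and 152 times in E and F. Avp, the vasopressin precursor, was counted 486, 654, 14, 410, 2 and 91 times in the same order. Nmb, with 23, 47, 59 and 47 counts in A to D, Gnrh1, with 14, 10, 21 and 19, and Agrp, with 7, 3, 10 and 6, were highest in mouse C. Gal, with 49, 69, 13 and 66, and Pomc, with 22, 99, 19 and 28, were lowest there. In footprints, Gnrh1 was again highest in C, with 8, 4, 9 and 3 counts. Nmb was not, with 4, 11, 7 and 10, and Agrp was lowest in C, with 9, 3, 1 and 3. Mouse F held Oxt at 9.75 CPM beside Pmch at 0.770 CPM, whereas mouse C held both low.

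The 12 transcription factors and enzymes listed for the hypothalamus gave a mixed picture. Their summed level was 36.7 CPM in A, 36.5 in B, 25.1 in C, 36.2 in D, 14 in E and 11.8 in F. Six3 (16.2, 16.7, 13.5, 15.8, 8.11 and 5.65 CPM in A to F) and Isl1 (7.56, 6.67, 5.46, 7.61, 3.18 and 2.31) made up most of it. Otp and Sim1, which mark the paraventricular hypothalamus among other nuclei, were at 0 in the RNA of mouse C, with 15, 26 and 19 counts of Otp in A, B and D. Fezf1, with 17, 9 and 19 counts in A, B and D, and Nr5a1, with 2, 4 and 3, were at 0 in C too. In footprints none of these genes was at 0 in C, on 1 to 5 counts each. There Sim1 was 2.16, 0.879, 1.43 and 3.57 CPM in A to D and Fezf1 0.864, 1.54, 1.14 and 0.840. Otp was 2.05, 1.10, 0.285 and 1.68 and Nr5a1 0.864, 1.32, 0.856 and 1.26, both lowest in C. Nkx2-1, which marks ventral hypothalamus, was counted 24, 39, 32 and 36 times in the RNA of A to D, so it was not lowest in C. Slc17a6, the vesicular glutamate transporter of thalamic and hypothalamic neurons, was 36.7, 31.6, 12.0 and 27.8 CPM in A to D. It belongs to a separate list of 9 thalamic genes, which summed to 160, 179, 123 and 138 CPM in the RNA of A to D. On that list Rora, Ntng1, Lef1 and Zic1 were not lowest in C, while the other genes were. The part of the hypothalamic content of each sample in the levels of the members was not tested, and in bulk tissue fewer cells of a type and less RNA per cell cannot be told apart.

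The genes whose pattern was most like that of Pmch were Gart (Pearson r = 0.984), Maged2 (0.973), Resp18 (0.957), C1qbp (0.955) and Agt (0.948), over log2 CPM in 10 homogenate libraries, centred within experiment and library kind, among 12123 genes. The points share mice and library depth, and r ignores the size of the change: Gart ran from 63.0 CPM in C to 75.8 in B, while Agt, the angiotensinogen gene, ran from 22.3 in C to 69.9 in B. Trh had an r of 0.885 with Pmch and 0.868 with Hcrt, and Hcrt and Pmch had 0.788. Hcrt was most like Mboat2 (0.952), Afap1l2 (0.951), Nbas (0.940), Rock1 (0.930) and Wdr3 (0.920). The mean of the 5 granins was most like Grpel1 (0.958), Pbrm1 (0.951), Dpysl2 (0.946), Tubb4b (0.942) and Aars (0.940), and its r with Pmch was 0.169.

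How far the members are enriched on ribosomes of Camk2a neurons was addressed by setting the IP against the input of mice E and F on exon counts. The ratio is relative to the whole homogenate, so a value below it does not show a lack of translation in those neurons. A call needed a fold change over 2 and an adjusted p under 0.05 (edgeR quasi-likelihood F-test, p-values of all genes adjusted by Benjamini-Hochberg), and 11.7% of 13254 genes were called higher and 21.8% lower. Of the 8 members with enough counts, Chga and Chgb were called higher and Trh lower. Scg2, Vgf and Scg3 passed the p but not the fold, Cartpt passed the fold but not the p, and Pdyn passed neither.

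The exon count of Chga was 3661 in input and 6479 in IP for mouse E, and 5883 and 10137 for mouse F. Divided by size factors, the log2 ratio of IP to input was 1.38 in E and 1.5 in F, and the edgeR log2 change was 1.33 (SE 0.18, adjusted p = 0.00082). Chgb had ratios of 1.17 and 1.16 and an edgeR log2 change of 1.05 (SE 0.11, adjusted p = 0.00035), which is just past 2-fold. Both transcripts were higher in the IP of each mouse.

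Vgf, a secreted precursor that neurotrophins induce, had ratios of 1.04 in E and 0.92 in F, and Scg2, the precursor of secretoneurin, 0.87 and 0.71. Their edgeR log2 changes were 0.88 (SE 0.18, adjusted p = 0.0056) and 0.67 (SE 0.092, adjusted p = 0.00094). Scg3 stood apart from the other granins, with ratios of −0.77 and −0.75 and an edgeR log2 change of −0.88 (SE 0.086, adjusted p = 0.00026). The 5 granins thus lay on both sides of the input, with a median log2 change of 0.88 against −0.034 over all genes.

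Exon counts of Trh were 75 in input and 25 in IP for mouse E, and 165 and 35 for mouse F. Its log2 ratios were −1.03 and −1.53, and the edgeR log2 change was −1.44 (SE 0.34, adjusted p = 0.0097). Without the input of mouse F the change was −1.02 and no longer passed (adjusted p = 0.067 in the same edgeR test).

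Cartpt was higher in the IP in both mice, with 74 counts in input and 125 in IP for E, 220 and 431 for F, and log2 ratios of 1.31 and 1.68. Its level differed between the mice, by 2.41-fold in input and 3.16-fold in IP CPM on CDS, and the edgeR log2 change was 1.45 (SE 0.57, adjusted p = 0.061). With the mouse as a replicate block, Cartpt passed, at a log2 change of 1.42 (edgeR adjusted p = 6.4e-11). That fit of 2 mice leaves little residual spread for a single gene, so the size of its p rests mostly on variance that edgeR shares across genes. It also passed on CDS counts at 1.89 (edgeR adjusted p = 0.0098).

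Pdyn split between the mice, with log2 ratios of 0.029 in E and −0.74 in F. It had 316 counts in input and 220 in IP for E, and 345 and 126 for F, so the IPs differed by more than the inputs did. The edgeR log2 change was −0.40 (SE 0.32, adjusted p = 0.31). Pmch and Hcrt had 0 to 4 exon counts in each of the 4 libraries and could not be tested.

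**Figure D3:**
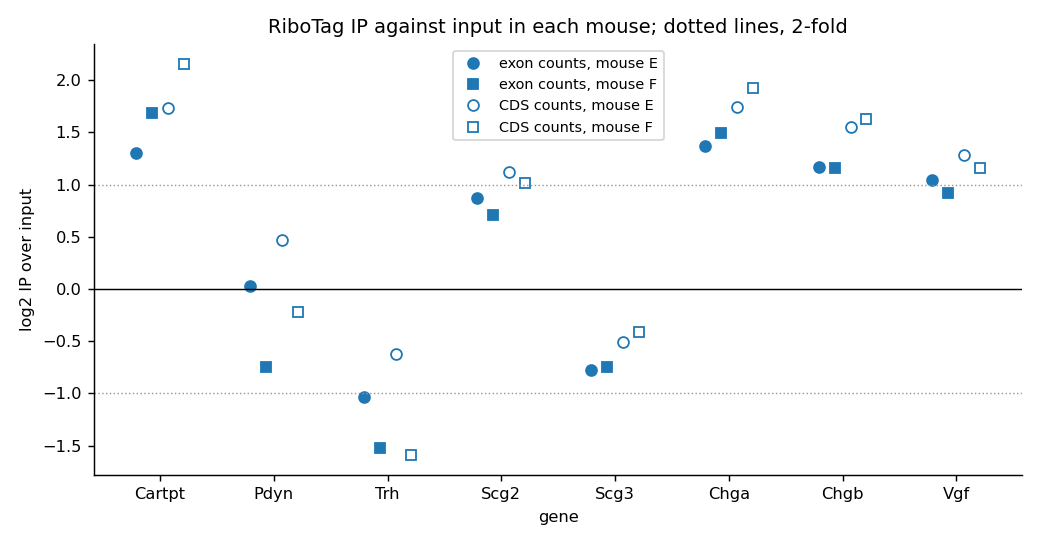
Log2 ratio of IP to input (y axis) for the 8 members with enough counts (x axis), in mouse E (circles) and mouse F (squares), on exon counts (filled) and CDS counts (open), each divided by DESeq2 size factors; dotted lines mark 2-fold. Chga, Chgb, Vgf, Scg2 and Cartpt lie above 0 in both mice and Scg3 and Trh below it, while Pdyn on exons lies at 0.029 in E and −0.74 in F.

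The choice of table and scaling bore on these sizes. CDS counts raised the members' log2 changes by 0.15 to 0.45 and library totals in place of TMM lowered them by 0.27 to 0.28. On CDS counts Vgf was also called, at 1.10, and with library totals Chgb fell short of 2-fold at 0.77 while Scg3 was called lower at −1.15.

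Other peptides of the forebrain were called in both directions in the IP, as a list of 13 with 12 tested had 2 higher and 6 lower. Cck, which cortical pyramidal cells express, rose by 2.24 and Adcyap1, the PACAP precursor, by 1.11 on the log2 scale, while Vip (−2.81), Nxph1 (−2.80), Pnoc (−2.79), Npy (−2.51), Tac2 (−2.15) and Sst (−1.99), most of them products of interneurons, fell. The median of the list was −1.36.

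The processing machinery had 2 of 12 genes called higher and 2 lower. Scg5, the chaperone of the convertase PC2, rose by 1.35 and Pcsk1n, the proSAAS inhibitor of PC1/3, by 1.10 on the log2 scale, while the convertases Pcsk6 (−3.31) and Pcsk1 (−1.11) fell. Among 11 tested genes of dense core vesicle formation and release, Resp18 rose by 1.15 and Baiap3 fell, at −1.96. Of 5 tested receptors of the member peptides, Mchr1, the melanin-concentrating hormone receptor, rose by 1.31 and Trhr fell, at −1.48.

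Translation efficiency (TE), the ratio of footprints to RNA of a gene in the same mouse, was above the median of all genes for all granins in both untreated mice. Log2 TE of the granins was 0.63 in A and 0.57 in B for Scg2, 0.60 and 0.63 for Vgf, 0.46 and 0.40 for Scg3, 0.36 and 0.51 for Chgb and 0.19 and 0.22 for Chga. The median over 10882 genes was 0.016. These values were not called, since a call needed 2-fold.

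Pdyn had the highest TE of the members. Its 258 and 267 RNA counts in A and B stood beside 563 and 302 footprints, in libraries of 9259938 and 4551357 footprints. Log2 TE was 1.27 in A and 1.37 in B, above 93.5% of genes, and 1.27 and 1.47 in mice C and D. It was the 1 member of 10 called higher in footprints than in RNA, at an edgeR log2 difference of 1.36 (SE 0.10, adjusted p = 3.5e-08), where 13.3% of 11891 genes were called higher and 17.5% lower.

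Of the other regional peptides, Cartpt had a log2 TE of 0.88 in A and 0.46 in B, Pmch 0.65 and 0.49, Trh 0.31 and 0.50 and Hcrt 0.088 and −0.12. The edgeR log2 difference of footprints and RNA for Cartpt was 0.70 (SE 0.15, adjusted p = 0.0009) and for Pmch 0.58 (SE 0.15, adjusted p = 0.0027), both under 2-fold. For Hcrt it was −0.090 (SE 0.36, adjusted p = 0.83), which does not show that its TE equals that of other genes.

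**Figure D4:**
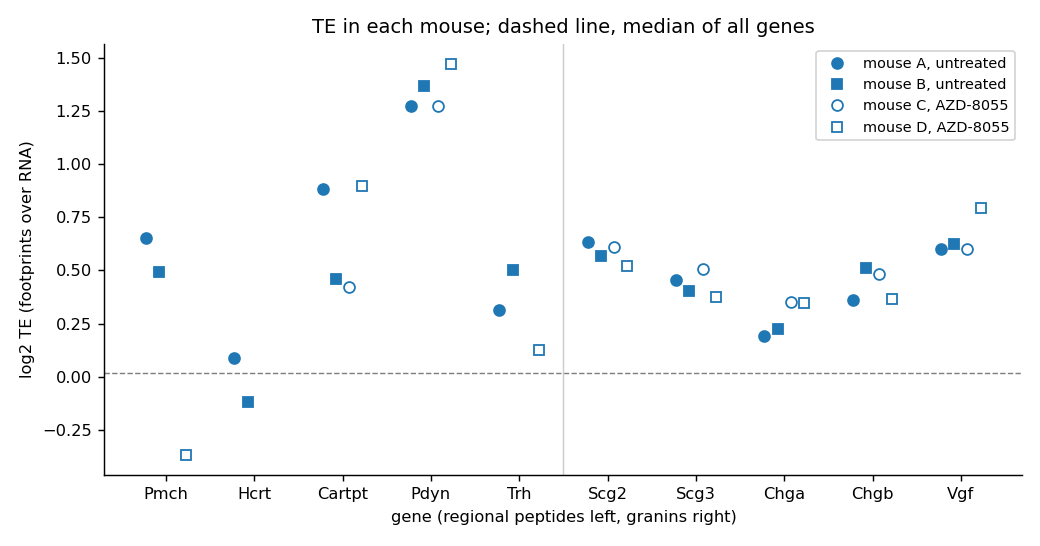
Log2 TE (y axis, footprints over RNA with DESeq2 size factors) of each member (x axis) in untreated mice A and B (filled) and AZD-8055 mice C and D (open); points with under 37 counts in a library of that mouse are left out, and the dashed line is the median of all genes. Pdyn lies between 1.27 and 1.47 in all 4 mice, and the granins lie between 0.19 and 0.79.

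Pmch has a further peculiarity of counting. Its exon counts were below its CDS counts, with 66 against 196 in mouse A and 75 against 271 in B, which was so for 2.54% of 12216 genes. RefSeq places Pmch at chr10:88091072-88092374 and Parpbp at chr10:88091398-88146969, so the genes overlap, and none of the other 9 members overlaps another gene there. The part of the overlap in the counts was not tested.

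The processing genes as a list had a median log2 TE of 0.59 (12 genes), the other forebrain peptides 0.57 (12) and the vesicle genes 0.11 (11). Pcsk1, which cleaves many peptide precursors, had an edgeR log2 difference of 1.94, Cpd 1.42 and Qpct, which forms the pyroglutamate of Trh peptide, 1.26, all called higher. Pcsk7 (−2.16), Furin (−1.53) and Pcsk1n (−1.15) were called lower. Of the forebrain peptides, Adcyap1 (1.32) and Vip (1.04) were called higher, and of the vesicle genes Syt4 (1.78) and Rab27b (1.20).

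The mTOR inhibitor AZD-8055 was compared with the untreated group to ask which messages change in level or translation within 1 h. None of the 10 members was called in RNA and none in TE, and 1 of 9 tested was called in footprints. Over all genes, the edgeR test at an adjusted p of 0.05 called 0.0575% of 12182 genes higher and 0.0903% lower in RNA, 0.0468% of 10695 higher and 0.963% lower in footprints and 0.00848% of 11797 higher and 0.297% lower in TE, where a call also needed 2-fold. At an unadjusted p under 0.05, 1004 genes passed in RNA and 798 in TE, and DESeq2 called 0 members in RNA and TE (its adjusted p was NA for Pmch, Hcrt, Cartpt and Trh in TE).

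None of the 5 granins was called after the drug, and their estimated changes were small. Their RNA log2 changes lay between −0.11 (Scg2, SE 0.067) and 0.0066 (Chga, SE 0.068), and their footprint changes between −0.12 (Scg2, SE 0.070) and 0.17 (Chga, SE 0.078), the latter with an edgeR adjusted p of 0.39. TE changes ran from −0.034 for Scg2 to 0.15 for Chga, with SEs of 0.097 to 0.11.

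Pmch was called lower in footprints, at a log2 change of −2.48 (SE 0.47, edgeR adjusted p = 0.036). The footprint values were 30.0 and 36.7 CPM in the untreated mice and 0.571 and 10.1 CPM in C and D, so the groups did not overlap, but the 2 treated mice were farther apart in ratio than D was from A or B. DESeq2 gave a change of −2.65 with no adjusted p (NA). Without mouse C the change was −1.72 (edgeR adjusted p = 5.9e-12), a fit in which D is the lone treated mouse and is assumed to vary like A and B, so that its p holds no spread between treated mice. Without mouse B, which leaves A as the lone untreated mouse, the change was −2.36 and lost the call (edgeR adjusted p = 0.37). Pmch RNA changed by −1.77 (SE 0.51, edgeR adjusted p = 0.28) with mouse C and by −0.85 (edgeR adjusted p = 0.092) without it, again with D alone. Its TE was 0.65 and 0.49 on the log2 scale in A and B and −0.37 in D, and the change of −0.72 (SE 0.99, edgeR adjusted p = 0.94) was not called.

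Hcrt RNA changed by −2.63 (SE 0.59, edgeR adjusted p = 0.10), and by −1.67 (edgeR adjusted p = 0.14) without mouse C. Its footprints averaged 31.2 counts per library and were not tested, and its TE change was 1.85 (SE 0.94, edgeR adjusted p = 0.76). Trh changed by −0.56 (SE 0.35) in RNA and −0.42 (SE 0.22) in footprints, with edgeR adjusted p of 0.72 and 0.46, and without mouse C its RNA change turned to 0.094. Without mouse D, which leaves C as the lone treated mouse, Pmch, Hcrt and Trh RNA were all called lower, at −5.56, −9.32 and −1.86, the second of these against a library with 0 counts, so that its size is set by the fit and is no bound.

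Mouse C was at the same time the treated mouse with 17.3 CPM of other hypothalamic peptides in RNA and 22.5 in footprints, where mouse D had 86.0 and 123. In mouse D, Pmch was 13.3 CPM in RNA and 10.1 in footprints, whereas Oxt was 29.3 and 34.0 and Avp 38.5 and 59.5. With 2 mice per group, the drug and the tissue sample of each mouse cannot be told apart for these genes. Cartpt and Pdyn, which did not follow mouse C, changed by −0.14 (SE 0.16) and 0.11 (SE 0.12) in RNA and by −0.081 (SE 0.17) and 0.19 (SE 0.10) in footprints, with edgeR adjusted p from 0.45 to 0.88.

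**Figure D5:**
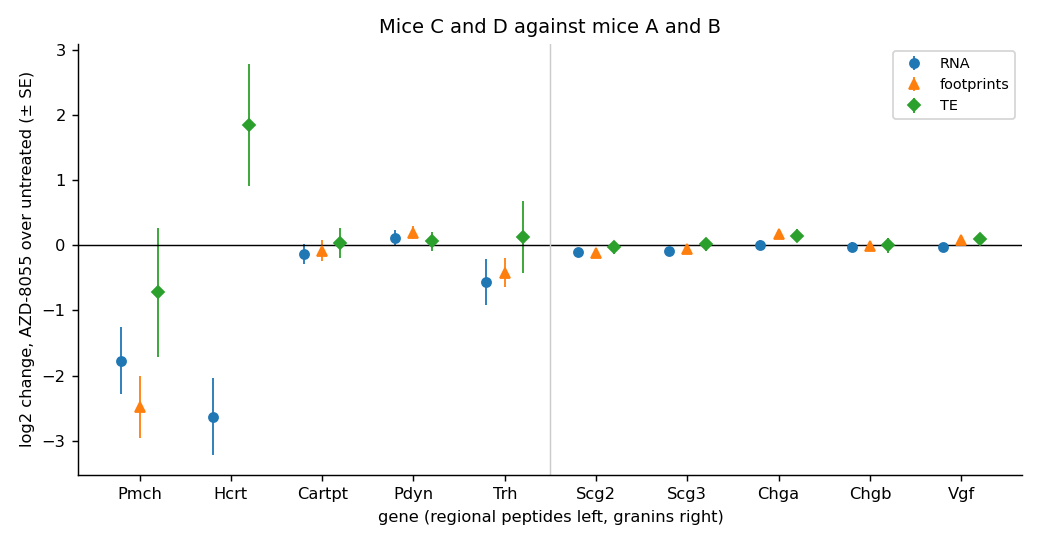
Log2 change of AZD-8055 mice C and D over untreated mice A and B (y axis, edgeR estimate with SE bars) in RNA (circles), footprints (triangles) and TE (diamonds) for each member (x axis). The granins lie within 0.17 of 0 in all 3 measures, Pmch and Hcrt lie far below 0 in RNA with wide errors, and Hcrt has no footprint point because it was not tested.

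None of the tested genes for prohormone processing (12), dense core vesicles (11), forebrain peptides (12), other hypothalamic peptides (5) or member receptors (4) was called in RNA after the drug, and none was in footprints or TE. The processing genes had a median log2 change of −0.015 in RNA and −0.033 in footprints, and the other hypothalamic peptides −1.31 in RNA, with Avp at −1.54 (edgeR adjusted p = 0.41), Pomc at −1.44 (edgeR adjusted p = 0.39) and Oxt at −1.31 (edgeR adjusted p = 0.49).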

How the data were processed

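Homogenate RNA, ribosome footprints and HA-immunoprecipitated polysomal RNA of 6 Camk2a-RiboTag mice were sequenced in 12 libraries. The authors deposited unnormalized whole-number read counts per gene, in a CDS table of every library and an exon table of the 8 RNA libraries. Footprint reads had been trimmed, clipped of poly(A) and cleared of rRNA by Bowtie2 before alignment (TopHat2) and counting (HTSeq). The submitters' processing notes name mm10. HTSeq leaves out reads that it cannot assign to a single gene, which lowers counts where genes overlap. A total of 27 symbols in the CDS table had become dates and held 0.350% of its counts.

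Groups follow the labels, and all columns were mapped. CPM are counts over the library total, with exact Poisson 95% intervals that cover counting error only. SDs and correlations used a pseudocount of 0.5 counts. Tests used edgeR 4.0.16 in R 4.3.3 (TMM, quasi-likelihood F-test, Benjamini-Hochberg adjustment) on every gene averaging 37 or more counts a library. For TE and IP ratios, counts were divided by DESeq2 1.42.0 size factors. Alternatives included DESeq2, limma-voom (limma 3.58.1), other scalings and filters, the other table, the mouse as a block and leaving out each mouse or library. The fits were tested on simulated data first.

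The letter of a library names its mouse, so the letters pair libraries. Across genes, the difference between mice correlated at 0.253 for A and B (RNA and footprints), 0.239 for C and D and 0.559 for E and F (input and IP).

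The genes named are the 10 members, the 2 highest and lowest of each list with those that passed a test, and the 5 genes most like Pmch, Hcrt and the granin mean. Oxt, Avp, Nmb, Gnrh1, Agrp, Gal, Pomc, Otp, Sim1, Fezf1, Nr5a1, Nkx2-1, Six3, Isl1, Slc17a6, Rora, Ntng1, Lef1 and Zic1 were named for their levels by mouse after their values were seen. Eif2s3y, Ddx3y, Uty and Kdm5d were named for their SD. Members and lists were chosen with earlier results of these data known. Lengths of coding sequences and proteins were not used here. Python 3.11.15 with scipy 1.17.1, pandas 2.3.3 and matplotlib 3.10.9 computed intervals and figures.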

Additional observations from a re-analysis of the deposited data

How the results depend on the processing

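Alternatives left most results on their side of the threshold and in their direction, and the exceptions follow; unless a value in the same sentence shows it, the cause was not tested. Of the tests of single members under an alternative, 85 of 104 in the IP kept both. So did 96 of 109 in RNA and 80 of 87 in footprints after AZD-8055, 97 of 114 for TE change and 109 of 120 for baseline TE. Changes of sign numbered 2, 8, 6, 16 and 3 in the same order. Calls were gained in 13 (IP), 5 (RNA), 1 (TE change) and 8 (baseline TE), and lost in 4 (IP) and 1 (footprints). In the IP, the 3 members called became 5 on CDS counts and 6 with no limit on the fold change. In RNA after AZD-8055, no filter on low counts gave 2 members in place of 0, and leaving out each mouse gave 0 to 3, the highest without mouse D. In footprints, DESeq2 gave 0 calls in place of 1 (the adjusted p of Pmch was NA), and leaving out each mouse gave 0 to 1, the lowest without mouse B. In TE change, no filter gave 1 member in place of 0, and for baseline TE no limit on the fold gave 9 in place of 1. The median SD between mice ranged from 0.0817 to 0.136 for the granins and from 0.877 to 1.04 for the regional peptides as each mouse was left out.

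With the mouse as a replicate block, members called were 4 in the IP (Cartpt added), 0 in TE change and 1 in baseline TE, Hcrt baseline TE turned to 0.019, and no other member's call changed. Blocked counts over all genes were 4463, 43 and 3649, against 4433, 36 and 3665. No block was possible within RNA or within footprints, where each mouse gave 1 library.

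Values that changed sign are log2. On CDS counts, Pdyn in the IP was 0.058. With library totals, RNA of Chga was -9.5e-05, footprints of Chgb 0.0021 and TE change of Chgb 0.033. TE change of Chgb was 0.0081 with DESeq2, 0.0084 with DESeq2 size factors and 0.0028 at a mean of 10 counts, and with no filter Cartpt was −0.014 and Scg3 −0.029. Leaving out each library or mouse moved Pdyn in the IP from −0.94 to 0.048 (the latter without the IP of F). RNA changes then ranged from −0.30 to 0.062 for Cartpt, −1.86 to 0.094 for Trh, −0.026 to 0.038 for Chga, −0.16 to 0.13 for Chgb and −0.062 to 0.0015 for Vgf. Footprint changes ranged from −0.32 to 0.090 for Cartpt, −0.13 to 0.019 for Scg3, −0.046 to 0.039 for Chgb and −0.00098 to 0.16 for Vgf. TE changes ranged from −0.25 to 0.26 for Cartpt, −0.055 to 0.18 for Pdyn, −0.24 to 0.97 for Trh, −0.026 to 0.060 for Scg3, −0.11 to 0.098 for Chgb and −0.024 to 0.21 for Vgf. Baseline TE of Hcrt ranged from −0.51 to 0.55, the highest without the RNA of mouse B.

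Over all genes, IP calls rose from 4433 to 9194 with no fold limit. RNA calls were 18, against 28 with DESeq2, 29 with library totals, 78 with no filter and 13 to 36 as each mouse was left out. Footprint calls were 108, against 264 with no filter and 64 to 837 as each mouse was left out. TE change calls were 36, against 57 with no filter and 102 with no fold limit, and baseline TE calls 3665, against 5667 and 8738. Library totals lowered the members' baseline TE by 0.14 (log2). Pmch and Hcrt had few counts in mice C, E and F, which limits their precision there.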

Other observations

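In the IP of mice E and F, genes listed for other regions were called in part. Of 8 tested thalamic genes, 6 were called lower, with Lef1 at −2.82 and Plekhg1 at −2.69 on the log2 scale, while Ntng1 (0.28) and Slc17a6 (0.37) did not pass. Of 7 tested striatal genes, Pde10a fell, at −1.57, and Drd2, the D2 dopamine receptor, at −1.12, while Ppp1r1b, at 0.86 (edgeR adjusted p = 0.0047), passed the p but not the fold, and the list median was −0.27. Of 10 immediate early genes, whose transcripts follow neuronal activity, Junb rose by 1.27, Bdnf by 1.06, Ier2 by 1.04 and Fos by 1.00, and none was called lower. All calls are by the edgeR test with the 2-fold limit.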
